A study of Mus musculus with 6 samples.

Results

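Superoxide dismutases, catalase and glutathione peroxidases form the enzymatic chain that removes superoxide and peroxides from cells. Their 10 genes Sod1, Sod2, Sod3, Cat, Gpx1, Gpx2, Gpx3, Gpx4, Gpx7 and Gpx8 were followed here among 56980 Ensembl gene identifiers. They were chosen by symbol, as members of the Sod and Gpx families plus catalase, and all 10 were in the count table and passed the filter on low counts. Messenger RNA had been sequenced from mouse lung tumours labelled as small cell lung cancer, a fast-growing carcinoma with neuroendocrine features, taken about 4 months after viral induction. All 6 samples came from tumours of a mouse model labelled QKO: 3 are labelled control and 3 Keap1 knockout. The labels do not spell out QKO, give no strain or age, do not say how Keap1 was inactivated and do not say whether samples came from separate animals. The p-values therefore measure the spread between these samples, which may be technical in part.

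Superoxide dismutases turn superoxide into hydrogen peroxide and oxygen. Catalase, in peroxisomes, splits hydrogen peroxide into water and oxygen, whereas glutathione peroxidases reduce hydrogen peroxide or lipid peroxides, most of them with glutathione as the electron donor. KEAP1 holds down the transcription factor NRF2, which switches on genes of glutathione synthesis and detoxification through antioxidant response elements, and NRF2 activity is frequent in lung cancers that have lost KEAP1.

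Reads counted on genes totalled 18731515 to 23759892 per library. Keap1 RNA did not separate the groups, at 58.7 to 78.4 CPM (read counts scaled to a common library size) in controls and 67.5 to 93.0 CPM in knockouts, and a disrupted gene need not lose its transcript. The NRF2 readout Nqo1, a quinone reductase gene, ranged from 3.58 to 49.6 CPM in controls and from 864 to 1324 CPM in knockouts. The neuroendocrine character that the label implies was measured mainly in control 3: 9 neuroendocrine markers summed to 5242 CPM there, to 114 and 73.2 CPM in controls 1 and 2 and to 54.5 to 214 CPM in knockouts. The granule gene Chga was at 948 CPM in control 3, 7.92 and 0.495 CPM in the other controls and at most 0.366 CPM in any knockout library. Control 1 stood apart by 6 squamous and basal markers (7309 CPM summed, at most 71.6 CPM elsewhere). Control 2 stood apart by 8 fibroblast markers (34377 CPM summed, at most 5085 CPM elsewhere), mostly Col1a1 and Col1a2 (20420 and 12070 CPM). Lum, Pdgfra, Pdgfrb and Thy1 were also highest in control 2. Col3a1 and Dcn were higher in control 3 (2291 and 238 CPM) than in control 2 (998 and 57.1 CPM). The median SD of log2 CPM over all genes tested was 0.577 among controls and 0.222 among knockouts.

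Genes for 2 of the enzymes rose in Keap1 knockout tumours, the cytosolic superoxide dismutase gene Sod1 by 4.39-fold and the lipid peroxide reductase gene Gpx4 by 2.51-fold (ratios of mean CPM). Cat and Gpx2 had larger folds, 5.46 and 9.18, with scattered controls, and neither passed the test. Sod2, the mitochondrial dismutase gene, was at 0.522 times its control level without passing, and the secreted and endoplasmic reticulum enzymes Sod3, Gpx3, Gpx7 and Gpx8 had overlapping groups. By the quasi-likelihood test of edgeR, with p-values adjusted over 17901 genes (Benjamini-Hochberg), 2 of 10 members were higher at an adjusted p below 0.05, where 2.42% of all genes tested were, and 0 were lower, where 1.89% were. At an unadjusted p below 0.05 the same test gave 4 members higher and 1 lower, against 13.8% and 16.9% of all genes tested, and DESeq2 called 4 higher and 1 lower, against 11.5% and 14.4%. In 4 members (Sod1, Cat, Gpx2 and Gpx4) all 3 knockouts exceeded all 3 controls, as in 21.5% of all genes tested, and in 1 (Sod2) all 3 knockouts were lower, as in 19.1%. The median log2 fold change was 0.73 over the 10 members and -0.08 over all genes tested.

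**Figure D1:**
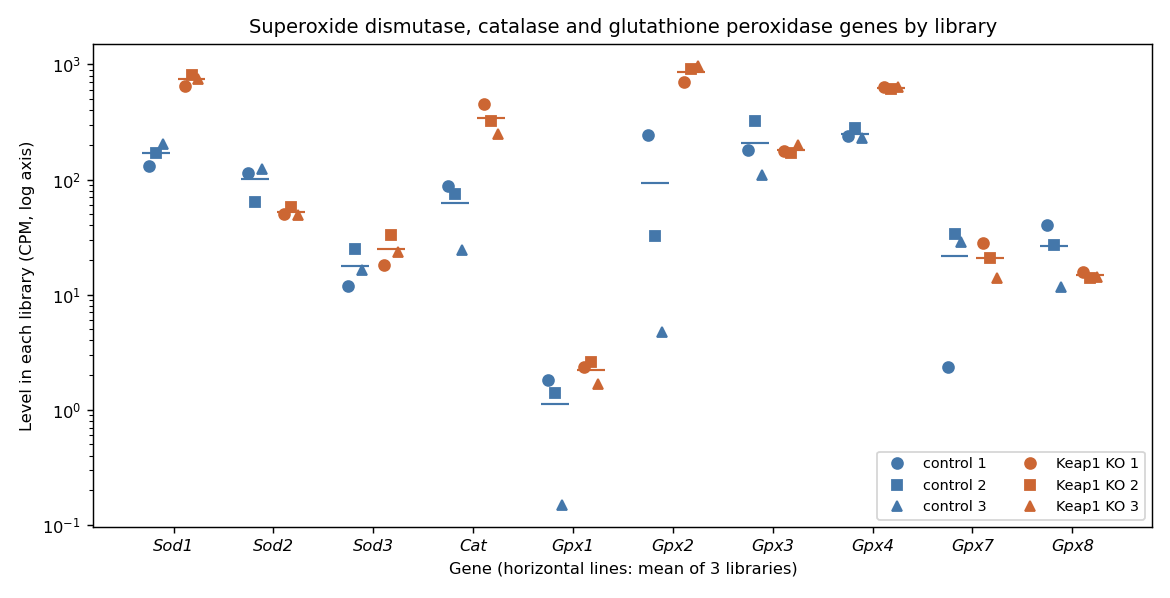
Level of each gene in each library in CPM on a log axis; blue symbols are the 3 controls, orange symbols the 3 Keap1 knockouts, and horizontal lines the group means. Orange symbols lie above all blue ones for Sod1, Cat, Gpx2 and Gpx4 and below them for Sod2, and the blue symbols of Gpx2 run from 4.78 to 244 CPM.

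Sod1 encodes the copper-zinc dismutase of the cytosol. Sod1 (ENSMUSG00000022982) measured 130, 170 and 205 CPM across controls 1 to 3, against 652, 815 and 751 CPM across knockouts 1 to 3. The groups lay far apart, and the spread within each was small beside the gap. Means were 168 ± 37.5 and 739 ± 82.0 CPM (SD, n = 3 each), or 2.13 ± 0.24 in log2 terms (SE), at edgeR adjusted p = 0.0260. The call ended without control 2 (edgeR adjusted p = 0.0523) and without knockout 1, 2 or 3 (0.116, 0.196 and 0.175), while the log2 fold change stayed between 1.98 and 2.30 over 15 alternatives. In the annotation of an earlier mouse build, the end of Sod1 overlaps Scaf4 on the opposite strand, and whether the counting used strand was not stated in any source at hand. Scaf4 stood at 74.8 to 80.0 CPM in controls and 62.8 to 67.1 CPM in knockouts, below the controls in every knockout library. A processed copy of Sod1, Gm8566 (97.8% identity over 465 bases), had 17 to 33 reads in controls and 89 to 99 in knockouts. The counting may have split reads between Sod1 and this copy.

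The region before the Sod1 start site is shown because it alone among the members matched the core of the antioxidant response element. The letters TGACNNNGC were searched on both strands in RefSeq promoter windows of build GRCm38.p6, 250 bases before to 50 after each start. Windows were at hand for 9 of the 10 members, all but Sod3, and 1 of these 9 genes held a match, against 14.0% of 27025 genes with such windows. The Sod1 match, in capitals, reads TGACCACGC on the strand opposite to the gene and begins at position -56, with the first transcribed base counted as 0. The 250 bases before the start, on the plus strand at chr16:90220512-90220761, are:
Sod1: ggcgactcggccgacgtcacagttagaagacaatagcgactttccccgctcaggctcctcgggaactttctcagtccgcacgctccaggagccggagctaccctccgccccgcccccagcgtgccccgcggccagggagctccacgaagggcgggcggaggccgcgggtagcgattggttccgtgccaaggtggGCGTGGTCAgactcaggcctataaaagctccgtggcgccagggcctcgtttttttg
A match of letters is a description of this window and no measure of binding.

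Sod2 encodes the manganese dismutase of the mitochondrial matrix. Sod2 (ENSMUSG00000006818) measured 114, 63.8 and 123 CPM across controls 1 to 3, against 50.1, 57.9 and 49.1 CPM across knockouts 1 to 3. All knockouts lay below all controls, with control 2 and knockout 2 close to each other. On the log2 scale the change came to -0.94 ± 0.28 (SE), at edgeR adjusted p = 0.0931, and it stayed between -1.16 and -0.76 over the alternatives. Sod3, the secreted dismutase of the extracellular matrix (ENSMUSG00000072941), was at 11.9, 24.9 and 16.4 CPM in controls and 18.1, 32.7 and 23.4 CPM in knockouts. Its groups overlapped, with a change of 0.48 ± 0.38 in log2 terms (SE) and edgeR adjusted p = 0.418.

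The log2 ratio of Sod1 to Sod2 CPM was 0.19, 1.42 and 0.73 for controls 1 to 3, against 3.70, 3.82 and 3.94 for knockouts 1 to 3. The difference of means was 3.04, and the groups did not overlap. An exact permutation test (two-sided) over the 6 libraries gave p = 0.1, the smallest that 3 against 3 allows, and 0.15 after adjustment over 3 such ratios, which were chosen after the values were seen.

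Catalase works beside the hydrogen peroxide producing oxidases of peroxisomes. Cat (ENSMUSG00000027187) measured 88.2, 74.3 and 24.3 CPM across controls 1 to 3, against 451, 319 and 250 CPM across knockouts 1 to 3. Every knockout value was far above every control value, and control 3, the library with neuroendocrine transcripts, was the lowest. Means were 62.2 ± 33.6 and 340 ± 102 CPM (SD, n = 3 each), and the log2 fold change was 2.45 ± 0.53 (SE). The adjusted p was 0.0575 by edgeR's quasi-likelihood test, just above the threshold of 0.05. It was 0.0183 without control 3, with a log2 fold change of 2.07, and 0.0448 by limma voom. The log2 ratio of Cat to Sod1 varied, from -3.08 to -0.56 in controls and from -1.59 to -0.53 in knockouts. Its group means differed by 0.45, with an exact permutation p of 0.8 (two-sided). That test compares the group means and does not measure how steady the ratio was.

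Over the 30 tested genes of peroxisome assembly and peroxisomal oxidation the median change was 0.13 on the log2 scale, and edgeR called none lower. DESeq2 called 1 lower, and 1 was lower at an unadjusted p below 0.05. Over all genes tested 1.89% were lower by edgeR, 14.4% by DESeq2 and 16.9% at that unadjusted p. Acox2, which oxidises branched-chain and bile acid intermediates, was at 2.59, 2.53 and 0.597 CPM in controls and 87.7, 148 and 176 CPM in knockouts. The groups were far apart, which came to 6.17 ± 0.68 in log2 terms (SE), at edgeR adjusted p = 0.0254.

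The glutathione peroxidases split by chemistry. Gpx1 to Gpx4 are selenoproteins, in which a TGA codon inside the reading frame is read as selenocysteine, whereas Gpx7 and Gpx8 carry a cysteine codon at the same place. The stretch around that codon is shown because selenium supply bears on the first 4 genes and not on the last 2. In GENCODE M21 transcripts each of Gpx1 to Gpx4 held 1 in-frame TGA before the end and Gpx7 and Gpx8 held 0. The 27 bases around the active-site codon, which is in capitals, are:
Gpx1: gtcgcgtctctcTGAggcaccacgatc
Gpx2: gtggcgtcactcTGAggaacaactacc
Gpx3: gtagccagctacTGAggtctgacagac
Gpx4: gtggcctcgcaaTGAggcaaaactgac
Gpx7: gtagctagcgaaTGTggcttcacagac
Gpx8: gtggctagtgacTGCcgcttcacagac

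Gpx4 reduces lipid hydroperoxides within membranes and is the main enzymatic brake on ferroptosis. Gpx4 (ENSMUSG00000075706) measured 239, 280 and 232 CPM across controls 1 to 3, against 633, 610 and 635 CPM across knockouts 1 to 3. It was the steadiest of the 10 genes in both groups, with SDs of log2 CPM of 0.146 among controls and 0.0326 among knockouts, both below those of the median gene. The squamous control, the control high in Col1a1 and Col1a2 and the neuroendocrine control all gave nearly the same Gpx4 level. Means were 250 ± 25.9 and 626 ± 14.1 CPM (SD, n = 3 each), or 1.33 ± 0.18 in log2 terms (SE), at edgeR adjusted p = 0.0320. The log2 fold change stayed between 1.27 and 1.44 over 15 alternatives, but the call ended without control 2 (adjusted p of 0.0537) and without knockout 1, 2 or 3 (0.138, 0.216 and 0.198). A near-identical copy, Gpx4-ps2 (99.7% identity over 733 bases), was at 10.5 to 12.2 CPM in controls and 33.2 to 36.2 CPM in knockouts. A processed copy, AC122253.3 (95.1% identity over 510 bases), had 9 to 16 reads in controls and 6 to 13 in knockouts. The counting may have split reads between Gpx4 and these copies.

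Gpx2, an epithelial peroxidase best known from the gut lining and a known NRF2 target, had the largest fold of the family and the widest controls. Gpx2 (ENSMUSG00000042808) measured 244, 32.6 and 4.78 CPM across controls 1 to 3, against 698, 914 and 969 CPM across knockouts 1 to 3. The highest control was 51.0 times the lowest, against 1.39 times among knockouts, yet no control reached a knockout level. Means were 93.7 ± 131 and 861 ± 143 CPM (SD, n = 3 each). On the log2 scale the change came to 3.20 ± 1.30 (SE), at edgeR adjusted p = 0.161. It was 5.53 without control 1, with edgeR adjusted p = 0.0547. The control with the most Gpx2 was the one with squamous and basal transcripts, and the part of those cells in the Gpx2 level was not tested. Gut and gastric markers, 8 in all, summed to 30.6 to 442 CPM in controls and 37.5 to 202 CPM in knockouts. Most of the highest sum came from Krt20 and Lgals4, at 276 and 127 CPM in control 2, whereas Tff2 was at 0 to 0.595 CPM in controls and 1.36 to 2.15 CPM in knockouts. Their part in the Gpx2 level was not tested. Gpx2 lies inside Fntb, which runs on the opposite strand and had 22.8 to 29.4 CPM in controls and 31.7 to 43.1 CPM in knockouts. Its processed copy Gpx2-ps1 (98.1% identity over 572 bases) had 0 to 17 reads in controls and 37 to 53 in knockouts. Reads may have been split between Gpx2 and this copy too.

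The Gpx2 promoter is shown for contrast with that of Sod1: its RefSeq window held 0 CpG pairs and 48.3% G and C, against 34 CpG pairs and 66.7% in that of Sod1, and no match to TGACNNNGC. Its 250 bases before the start, on the minus strand at chr12:76795555-76795804 of GRCm38.p6, are:
Gpx2: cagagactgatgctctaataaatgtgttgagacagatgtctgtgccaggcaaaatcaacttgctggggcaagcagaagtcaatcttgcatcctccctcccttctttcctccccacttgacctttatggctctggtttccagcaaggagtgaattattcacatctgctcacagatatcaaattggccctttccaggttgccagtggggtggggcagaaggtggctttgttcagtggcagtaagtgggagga
The absence of these letters says nothing of sites elsewhere around the gene.

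Gpx3, the secreted peroxidase of plasma and extracellular fluid (ENSMUSG00000018339), measured 181, 325 and 110 CPM across controls 1 to 3, against 176, 170 and 198 CPM across knockouts 1 to 3. The knockouts sat inside the control range, and control 2, the library high in Col1a1 and Col1a2, was highest. On the log2 scale the change came to -0.18 ± 0.40 (SE), at edgeR adjusted p = 0.785, and it turned to 0.34 without control 2. Gpx1, the cytosolic enzyme that is abundant in most tissues (ENSMUSG00000063856), had only 36, 28 and 3 reads in controls 1 to 3 and 50, 57 and 38 reads in knockouts 1 to 3. These levels of 0.149 to 2.61 CPM were the lowest of the group, and no source at hand gives the counting rules behind them. The Gpx1 row is therefore no safe measure of the gene, and its log2 fold change of 0.97 ± 0.81 (SE) did not pass (edgeR adjusted p = 0.446).

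Gpx7 and Gpx8, the cysteine enzymes of the endoplasmic reticulum that take up peroxide from oxidative protein folding, did not pass either. Gpx7 (ENSMUSG00000028597) measured 2.33, 33.9 and 28.7 CPM across controls 1 to 3, against 28.4, 20.7 and 13.9 CPM across knockouts 1 to 3. The squamous control 1 was the low library, far under both other controls and all knockouts. On the log2 scale the change came to -0.05 ± 0.88 (SE), at edgeR adjusted p = 0.977, and its sign turned in 6 of 15 alternatives. Gpx8 (ENSMUSG00000021760), which lies inside the barely detected Cdc20b on the opposite strand, showed another order among controls, with 39.9, 26.9 and 11.8 CPM, and was at 15.8, 14.1 and 14.3 CPM in knockouts. Its log2 fold change was -0.83 ± 0.45 (SE), with edgeR adjusted p = 0.262. Without control 3, the library lowest in Gpx8, it was -1.18 with edgeR adjusted p = 0.0304. In the list of 16 tested genes of oxidative folding in the endoplasmic reticulum edgeR called 0. At an unadjusted p below 0.05, 2 were higher and 1 lower, against 13.8% and 16.9% of all genes tested. DESeq2 called 2 higher and 1 lower, against 11.5% and 14.4%, and limma voom called 0. The smallest p belonged to Txndc12, a thioredoxin-like folding protein gene, and Vkorc1l1, a vitamin K epoxide reductase relative, with log2 fold changes of 1.05 and 0.56.

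**Figure D2:**
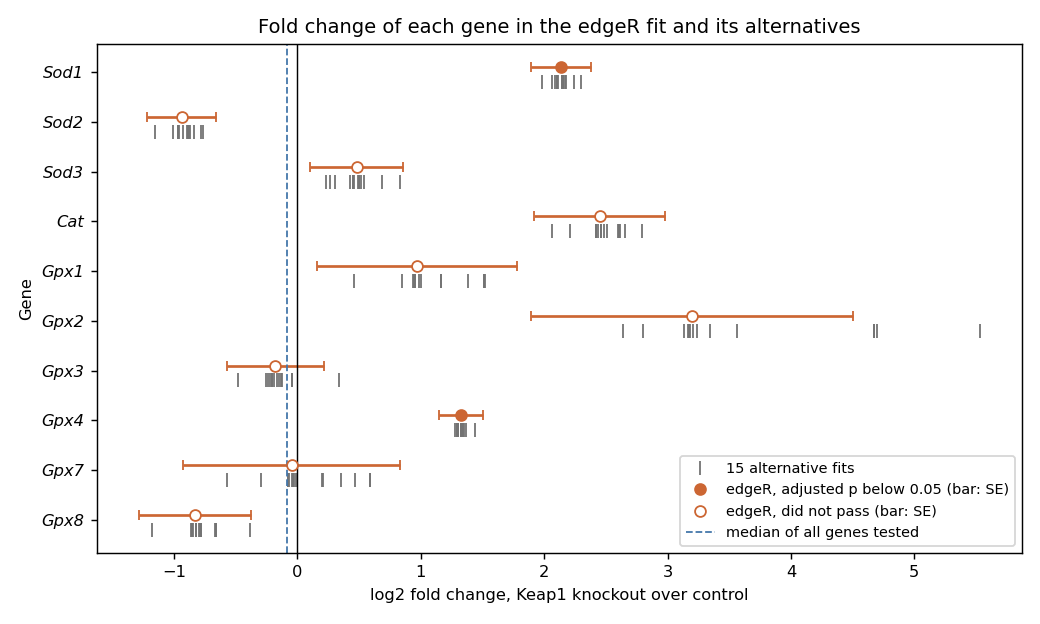
Log2 fold change of each gene, knockout over control, with its SE; filled points have an edgeR adjusted p below 0.05, grey ticks are the 15 alternative fits and the dashed line is the median of all genes tested. Sod1 and Gpx4 are the filled points, the ticks of Gpx2 spread from 2.64 to 5.53, and those of Gpx3 and Gpx7 fall on both sides of 0.

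Levels of different genes were compared per length, as CPM per kb of the longest protein-coding transcript in GENCODE M21, an annotation of an earlier build. In controls Sod1 (262 ± 58.5 CPM per kb, SD, n = 3) and Gpx4 (251 ± 26.0) led and did not differ beyond their spread. Gpx3 (129 ± 68.8) and Gpx2 (87.9 ± 123) followed, overlapping each other. Gpx8 (25.1 ± 13.5), Cat (23.8 ± 12.9), Sod2 (17.1 ± 5.46) and Gpx7 (16.8 ± 13.1) came next within each other's spread, and Sod3 (4.75 ± 1.77) and Gpx1 (1.05 ± 0.812) had the lowest means. In knockouts the order was Sod1 (1153 ± 128), Gpx2 (807 ± 134), Gpx4 (629 ± 14.1), Cat (130 ± 39.1) and Gpx3 (114 ± 9.29). Gpx2 was above Gpx4 in all 3 knockout libraries, at 655 to 908 against 613 to 639 CPM per kb, whereas Cat and Gpx3 overlapped. Gpx7 (16.3 ± 5.60) and Gpx8 (14.2 ± 0.929) followed, overlapping each other, then Sod2 (8.93 ± 0.821) and Sod3 (6.62 ± 1.98), which also overlapped, and Gpx1 (2.06 ± 0.45). Sod2 has a long transcript model of 5861 bases, and a shorter one would raise its level per kb.

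By the same measure the makeup of the peroxidase family changed from library to library in controls and was alike in knockouts. Gpx2 held 36.6%, 5.37% and 1.32% of the summed Gpx level per kb for controls 1 to 3, against 45.4%, 53.3% and 53.5% in knockouts 1 to 3. Gpx4 held 38.5%, 49.4% and 68.4% in controls and 44.2%, 38.1% and 37.6% in knockouts, although its own level was higher there. The log2 ratio of Gpx2 to Gpx4 CPM was 0.03, -3.10 and -5.60 in controls and 0.14, 0.58 and 0.61 in knockouts. The squamous control 1 was thus close to the knockouts in this ratio, which was not tested. The group means of the ratio differed by 3.33. For that difference the exact permutation p over the 6 libraries was 0.1 (two-sided), the smallest possible, and 0.15 after adjustment. Gpx3 held 18.2% to 35.9% of the family in controls and 6.64% to 7.68% in knockouts. Among dismutases Sod1 held 89.96% to 93.8% in controls and 98.6% to 98.8% in knockouts. These shares rest on transcript models of 641 bases for Sod1 and 5861 bases for Sod2. Before division by length, control 1 had 130 CPM of Sod1 and 114 CPM of Sod2. The summed Gpx level went from 511 ± 151 to 1583 ± 130 CPM per kb and the summed Sod level from 284 ± 59.9 to 1168 ± 130 (SD, n = 3 each). Gpx1 counts at 0.041% to 0.273% of the family, and the sums take its row as deposited.

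**Figure D3:**
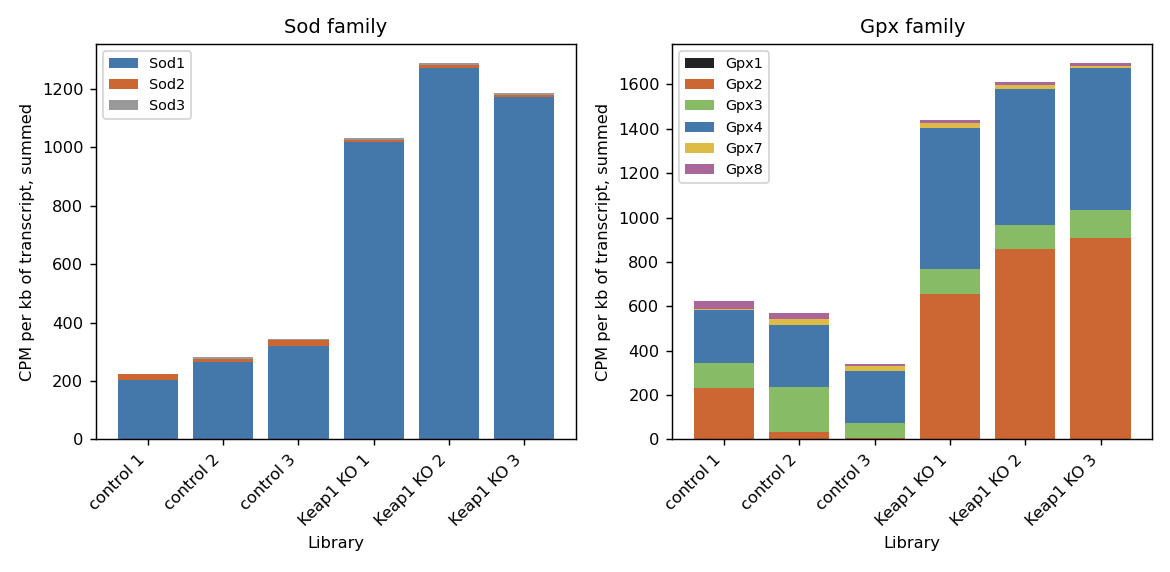
Summed level per kb of transcript in each library, stacked by gene, for the Sod family (left) and the Gpx family (right). Sod1 makes up most of each Sod bar, in which Sod2 is divided by a long transcript model. The Gpx2 part of the Gpx bars runs from 1.32% in control 3 to 53.5% in knockout 3.

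The genes that supply these enzymes were counted by list. Each count stands against the shares of all genes tested given above. These were 2.42% higher and 1.89% lower for edgeR calls and 11.5% and 14.4% for DESeq2 calls. They were 13.8% and 16.9% at an unadjusted p below 0.05, and 21.5% and 19.1% for groups that did not overlap. Selenium is loaded onto the selenocysteine transfer RNA and inserted with dedicated factors. Of 12 tested genes of this machinery 1 rose and none fell (median log2 fold change 0.57), and DESeq2 called 5 higher. All 3 knockouts exceeded all 3 controls in 6 of them and were below all 3 in 1, Sephs1, a paralogue of Sephs2. The one that passed was Sephs2, which makes the selenium donor selenophosphate: it was at 27.5, 36.1 and 23.6 CPM in controls and 78.0, 75.6 and 76.7 CPM in knockouts, or 1.40 ± 0.21 in log2 terms (SE), at edgeR adjusted p = 0.0359. Like Gpx4, Sephs2 was nearly constant among knockouts. Such steadiness was not particular to them: in knockouts Hspa5, of the oxidative folding list, was at 467 to 477 CPM. Glrx5, of the glutathione list, was at 58.42 to 60.25 CPM there. Of 15 other selenoprotein genes tested, edgeR called 0, with 4 higher and 1 lower at an unadjusted p below 0.05 (DESeq2 called 2 and 1). The median log2 fold change was -0.005, and the smallest p belonged to Selenoh, a nuclear redox protein gene (0.93), and Dio3, the thyroid hormone inactivating deiodinase gene (2.19). Selenop, the selenium carrier of plasma, was at 107 to 344 CPM in controls and 304 to 479 CPM in knockouts.

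Copper reaches SOD1 through the chaperone Ccs, which stood at 16.0, 21.6 and 11.0 CPM in controls and 27.9, 23.9 and 30.9 CPM in knockouts. Its groups did not overlap, but the log2 fold change of 0.77 ± 0.31 (SE) did not pass (edgeR adjusted p = 0.160). Of 17 tested genes of copper, zinc and manganese supply none rose and 1 fell by edgeR (median -0.36), while DESeq2 called 1 higher and 6 lower. The groups did not overlap in 2 genes that were higher and 5 that were lower in knockouts. The gene that fell was Atp7a, the copper pump of the secretory route, from 30.3 ± 6.95 to 7.67 ± 1.48 CPM (SD, n = 3 each), which is -1.98 ± 0.30 in log2 terms (SE).

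Glutathione supply and recycling had 5 of 13 tested genes higher and none lower by edgeR (DESeq2 called 7 and 0), and the median was 2.14 on the log2 scale. The 4 with the smallest p were Gss, Ggt1, Gclm and Gclc, with log2 fold changes of 4.06, 4.57, 3.79 and 4.59. They make glutathione or, for Ggt1, break it down outside the cell. Gsr, which regenerates glutathione after the peroxidase reaction, was at 343, 180 and 84.6 CPM in controls and 946, 1428 and 1212 CPM in knockouts, and missed the threshold (log2 fold change 2.56 ± 0.54, adjusted p of 0.0553 by edgeR). In the parallel thioredoxin and peroxiredoxin route 4 of 16 rose and none fell by edgeR (median 0.40): Srxn1, Txnrd1, Prdx1 and Txn1. DESeq2 called 7 higher and 1 lower. Groups did not overlap in 8 genes that were higher and in 1 that was lower, Sesn3, a stress-induced sestrin gene, at 110 to 315 CPM in controls and 47.8 to 65.6 CPM in knockouts. The peroxiredoxin gene Prdx1, a cytosolic peroxide scavenger, was at 293 to 351 CPM in controls and 1340 to 2335 CPM in knockouts.

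Of 19 tested oxidases that make superoxide or peroxide 2 rose and none fell by edgeR, against 6 higher and 1 lower by DESeq2 (median -0.28). The 2 were Aox1 (aldehyde oxidase, 3.30 ± 0.19, log2 and SE) and Sqor (mitochondrial sulfide oxidation, 4.59 ± 0.86). Cybb, the phagocyte NADPH oxidase, was at 58.6, 75.1 and 28.1 CPM in controls and 18.6, 23.9 and 15.4 CPM in knockouts, with edgeR adjusted p = 0.0811. Of 19 tested genes of lipid peroxidation and ferroptosis, where Gpx4 acts, 1 rose and 1 fell by edgeR (median 0.03), and DESeq2 called 3 higher and 2 lower. Cyb5r1, a reductase that feeds lipid peroxidation, rose from 41.9 ± 11.9 to 145 ± 12.5 CPM, and Ncoa4, the receptor for ferritin breakdown, fell from 52.6 ± 8.84 to 19.8 ± 2.03 CPM (SD, n = 3 each). Aifm2, the Gpx4-independent suppressor of ferroptosis, had overlapping groups (18.6 to 36.2 and 25.8 to 30.2 CPM).

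**Figure D4:**
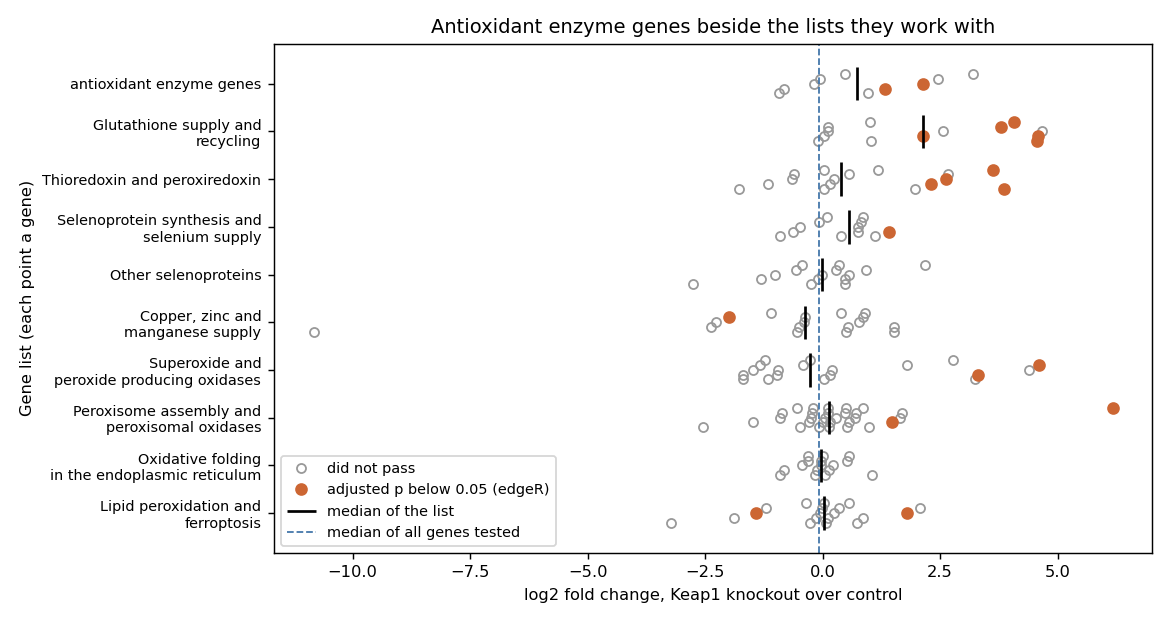
Log2 fold change, knockout over control, of every tested gene in each list; orange points have an edgeR adjusted p below 0.05, black bars are list medians and the dashed line is the median of all genes tested. Glutathione supply has the highest median (2.14); the point at -10.82 is the manganese exporter gene Slc30a10, which had no reads in knockouts, so its fitted value depends on the prior count.

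In bulk tumours a change in the number of cells of a type and a change of RNA per cell cannot be told apart. Club and ciliated markers (7) summed to 264 to 1782 CPM in controls and 2267 to 6166 CPM in knockouts. By edgeR 1 of 7, the club cell secretoglobin gene Scgb3a2, rose, where 2.42% of all genes tested did. The club cell gene Scgb1a1, the largest part of each knockout sum, was at 120 to 1355 CPM and 1574 to 5331 CPM. Cyp2f2 and Scgb3a1 overlapped between groups. The ciliated cell gene Foxj1 went the other way, at 18.9 to 29.8 CPM in controls and 11.3 to 18.0 CPM in knockouts (edgeR adjusted p = 0.176). Tppp3 and Dnah5, also genes of ciliated cells, had overlapping groups. Alveolar markers (9) summed to 259 to 1753 CPM and 1708 to 4554 CPM. None passed in edgeR or DESeq2, and 0 had an unadjusted p below 0.05. Macrophage and monocyte markers (10) summed to 374 to 1432 CPM and 606 to 1179 CPM. Lyz2 was the largest part of each sum, at 90.4 to 599 CPM and 397 to 1004 CPM. EdgeR called 0 of the 10, with 6 lower at an unadjusted p below 0.05, as were 16.9% of all genes tested. DESeq2 called 5 lower, against 14.4% of all genes tested. All 3 knockouts were below all 3 controls in 5 of them, as in 19.1% of all genes tested, and above in 0. Erythroid markers (7 found), relevant since red cells are rich in catalase and dismutase, summed to 20.6 to 334 CPM and 8.70 to 124 CPM, and the groups overlapped. Fibroblast, smooth muscle, endothelial, lymphoid and neutrophil markers each had 0 members past the edgeR test. At an unadjusted p below 0.05 these 5 lists had 0, 1, 0, 0 and 0 members higher and 5, 2, 0, 1 and 0 lower, in that order. DESeq2 called 0, 1, 0, 0 and 0 higher and 6, 2, 0, 1 and 0 lower. Over all genes tested 13.8% were higher and 16.9% lower at an unadjusted p below 0.05, and 11.5% and 14.4% by DESeq2. The part of airway epithelium in the levels of Sod1, Gpx4, Cat and Gpx2 was not tested.

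Patterns over the 6 libraries were compared by the root mean square difference of centred log2 CPM among 12644 other genes with a mean of at least 5 CPM. The closest to Sod1 were Fitm2 (0.149), Tedc2 (0.169) and Sfxn5 (0.218), and the closest to Gpx4 were Nradd (0.0379), 1700037H04Rik (0.0505) and Lsm10 (0.0617). None of the 6 is a member of the group.

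The tools differed on Cat, Gpx2 and Sod2. DESeq2 on the same counts called 4 members higher (Sod1, Cat, Gpx2 and Gpx4), where 11.5% of all genes tested were, and 1 lower (Sod2), where 14.4% were. In the authors' deposited table, Sod1, Cat, Gpx2 and Gpx4 had log2 fold changes of 2.13, 2.44, 3.19 and 1.32, with adjusted p of 6.45e-10, 0.000627, 0.0305 and 7.31e-08. The same 4 are thus higher in the authors' deposited table at an adjusted p below 0.05, as were 7.10% of its genes. Sod2 had a log2 fold change of -0.94 and an adjusted p of 0.0599 in the authors' deposited table, where 10.7% of genes were lower. All of these tests use the same 6 libraries. Limma voom called Sod1, Cat and Gpx4 higher (3.71% of all genes tested) and no member lower (2.25%), and with a spread per genotype it called these and Gpx2 higher (2.21%) and none lower (2.56%).

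Dropping control 3 left Sod1, Cat and Gpx4 higher (8.40% of all genes) and Gpx8 lower (8.80%) in edgeR. Without control 2 no member was called (0.773% of genes higher, 0.642% lower), nor without knockout 1 (0.0106% higher, 0.00% lower), nor without knockout 2 or 3 or with the sample number as a block (0.00% each way). Taking Xist level into the fit also left no member called (0.106% higher, 0.0279% lower). At an adjusted p below 0.1 edgeR called Sod1, Cat and Gpx4 higher (8.24% of genes) and Sod2 lower (9.17%).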

How the data were processed

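The 6 libraries were grouped by the labels as 3 control and 3 Keap1 knockout. The authors deposited raw read counts, whole numbers for each Ensembl gene. Reads were aligned with STAR to mm39, per the submitters' processing notes; the counter, annotation release and treatment of strand or multi-mapping reads were not stated in any source at hand. The authors' deposited comparison gives a mean normalized signal per gene, log2 fold changes, a Wald score and p-values, from DESeq2, which the submitters' processing notes name. Symbols came from a name table that paired 52073 of 56980 identifiers. Of 270 listed symbols 269 were found, 3 by a synonym (RefSeq, GRCm38.p6).

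Counts were filtered with filterByExpr, scaled by TMM and tested with edgeR 4.0.16 in R 4.3.3 (quasi-likelihood, robust, two-sided, genotype as only term, Benjamini-Hochberg over 17901 genes, threshold 0.05). CPM use TMM-adjusted totals. SDs and patterns of log2 CPM used a pseudocount of 0.1 CPM. SE is the log2 fold change divided by the square root of F. No pair of replicates agreed within sampling noise. The fit was tested on simulated counts. Near copies had at least 90% identity over at least 400 bases (blastn, GENCODE M21). Other settings tried: scaling by RLE or upper quartile, leaving off the filter, a minimum of 1 CPM in 3 samples, DESeq2 1.42.0, limma 3.58.1 voom, each library left out, the sample number as a block and an adjusted p below 0.1. After seeing the data 2 more were added: voom weights that give each genotype its own spread, and edgeR with the Xist level in the design.

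The members and lists were chosen with earlier results of these data known. All members are named; of each context list at most 4 called genes are named (if no gene was called, the 2 of lowest p), together with Keap1, Nqo1, Gsr, Ccs, Sephs2, Selenop, Cybb and Aifm2. The 3 closest patterns are named for members past the threshold. Slc30a10, Sephs1, Sesn3, Hspa5, Glrx5, Scaf4, Fntb, Gm8566, Gpx2-ps1, Gpx4-ps2, AC122253.3 and single marker genes were named after their values were seen. A result of the peroxisome list is not reported here.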

Additional observations from a re-analysis of the deposited data

How the results depend on the processing

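Sod1, Sod2, Sod3, Cat, Gpx1, Gpx2, Gpx4 and Gpx8 kept the sign of their log2 fold change in all 15 alternatives. Gpx3 turned to 0.34 without control 2, and Gpx7 to 0.59 in both voom fits, 0.35 with the replicate block, 0.47 and 0.21 without controls 2 and 3 and 0.20 without knockout 3; leaving out 1 library gave -0.48 to 0.34 for Gpx3 and -0.57 to 0.47 for Gpx7, and the cause was not tested. The 2 members called higher (433 genes higher and 338 lower in all) became 4 with DESeq2 (2060 higher, 2582 lower, and Sod2 as 1 member lower), 3 with limma voom (664 higher), 4 when voom gave each genotype its own spread, and 3 higher with 1 lower at an adjusted p below 0.1 (1475 and 1642 genes). With Xist level as a term 0 members were called, with 19 genes higher and 5 lower. Leaving out 1 library gave 0 to 3 members higher and 0 to 1 lower, with 0 to 1568 genes higher and 0 to 1641 lower. Without the filter 283 genes were higher and 182 lower, over more genes tested. The counts were 0 members without control 2 (147 and 122 genes) and without knockout 1, 2 or 3 (2, 0 and 0 genes in all by edgeR, where 3758, 3372 and 3321 had an unadjusted p below 0.05).

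Same-numbered samples were not paired by the labels, and their deviations from group means correlated at 0.0176, 0.00012 and 0.0507 across genes; not every sample correlated best with its own number. With the replicate block edgeR called 0 genes higher, 0 lower and 0 members, with 4026 genes at an unadjusted p below 0.05. The smallest counts behind a member were 3 to 57 reads for Gpx1, 46 reads for Gpx7 in control 1 and 96 reads for Gpx2 in control 3, and the effect of depth was not tested.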
